A study of Mus musculus with 458 samples.

Results

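Immediate-early-active and inactive haematopoietic stem cells (HSCs) were compared within multilineage clones. Active cells were those in which at least 3 of 9 immediate early genes (Fos, Fosb, Jun, Junb, Egr1, Ier2, Dusp1, Zfp36 and Nr4a1) reached 1 RPKM, and inactive cells those in which 0 or 1 did. Cells with exactly 2 were set aside as intermediate. The multilineage (MUL) cells, 78 from mouse 1 and 85 from mouse 2 out of 458 cells in the series, comprised 40 active, 78 inactive and 45 intermediate cells. The cells were thus chosen by the measured levels of these 9 genes, whose values describe the states and test nothing.

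Immediate early genes are transcribed within minutes of a signal, without new protein synthesis, by factors already present in the cell. Fos and Jun proteins pair to form the transcription factor AP-1 and Egr1 is a zinc-finger transcription factor, while Dusp1 removes phosphate from MAP kinases and Zfp36 (tristetraprolin) brings about decay of AU-rich mRNAs, so both limit the response. Their transcripts are short-lived, and they are known to be induced by cytokines, by stress signals and by tissue dissociation.

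Each cell was a donor-derived HSC sorted as LSK CD150+CD48-CD45.2+ from the bone marrow of a C57BL/6 recipient. The recipient had received 1 Vwf+ HSC and had been followed over 16 weeks, so all cells of a mouse descend from 1 transplanted cell. MUL recipients had multilineage reconstitution, and the other 4 mice (2 PEM and 2 PLT) had lineage-restricted reconstitution. Active and inactive cells came from the same 2 MUL mice and, in each mouse, from the same 2 sets named P1 and P2 in the cell titles. These are read here as plates. The well names of P1 and P2 cells share no column number, so the titles do not tell whether they were separate plates. The 2 MUL mice are 2 clones whose names begin with the same code, which the labels do not explain, and no treatment separated the states.

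The sorted identity was checked against HSC markers. At 1 RPKM or more, Meis1 was detected in 126 MUL cells, Kit in 104 and Ly6a in 103. Hlf was detected in 59, Mecom in 45 and Procr in 38. Slamf1, which encodes the CD150 used for sorting, was detected in only 12 MUL cells, and its transcript was at 0 or below 1 RPKM in the rest. MUL cells had 1.30 to 9.62 M mapped reads (median 4.90 M) and 1105 to 4479 detected genes (median 2381) by the authors' count.

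Active cells made up 12 of 78 cells of mouse 1, or 15.4% (exact 95% interval 8.21 to 25.3), and 28 of 85 cells of mouse 2, or 32.9% (23.1 to 44.0). In mouse 1 the plates held 6 active and 28 inactive cells on P1 and 6 active and 20 inactive cells on P2. In mouse 2 they held 12 active and 20 inactive cells on P1 and 16 active and 10 inactive cells on P2. By the same rule 9 of 93 cells were active in PEM mouse 1, 1 of 25 in PEM mouse 2, 1 of 93 in PLT mouse 1 and 2 of 84 in PLT mouse 2. The intervals cover counting error only, and since the rule sets these shares they carry no test.

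Most active cells lay close to the boundary: 24 of the 40 had exactly 3 of the 9 genes, 16 had 4 or more, and the highest number was 6. Among inactive cells 48 had 1 gene and 30 had none. Of the 1467 values that the rule read, 931 were 0, 256 lay above 0 and below 1 RPKM, 42 lay from 1 to below 10 RPKM and 238 were 10 RPKM or more. The highest value below the boundary was 0.999 RPKM and the lowest above it 1.01 RPKM. Only 31 values lay between 0.5 and 1 RPKM and 20 between 1 and 2 RPKM.

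Ier2 and Dusp1 carried the active state. Ier2, a nuclear protein induced by growth factors, was detected in 10 of 12 active and 13 of 48 inactive cells of mouse 1, and in 24 of 28 active and 6 of 30 inactive cells of mouse 2. Dusp1 was detected in 11 of 12 active and 8 of 48 inactive cells of mouse 1, and in 23 of 28 active and 9 of 30 inactive cells of mouse 2. Every active cell had Ier2 or Dusp1 and 28 of 40 had both. The median of Ier2 was 170 RPKM in active and 0.167 RPKM in inactive cells of mouse 1, and 134 RPKM in active and 0.372 RPKM in inactive cells of mouse 2. That of Dusp1 was 96.7 RPKM in active and 0.137 RPKM in inactive cells of mouse 1, and 389 RPKM in active and 0.482 RPKM in inactive cells of mouse 2. The ranges still overlapped, since 1 inactive cell of mouse 2 had 2303 RPKM of Dusp1 against a highest active value of 2318 RPKM.

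Zfp36 was detected in 7 of 12 active and 3 of 48 inactive cells of mouse 1, and in 16 of 28 active and 2 of 30 inactive cells of mouse 2. Junb, an AP-1 subunit, differed between the clones: it was detected in 2 of 12 active and 0 of 48 inactive cells of mouse 1 but in 18 of 28 active and 2 of 30 inactive cells of mouse 2. Jun was detected in 6 of 12 active and 2 of 48 inactive cells of mouse 1, and in 8 of 28 active and 1 of 30 inactive cells of mouse 2. Fos and Egr1, 2 of the best known immediate early genes, were less common, with either detected in 14 of 40 active cells. Fos was detected in 4 of 12 active and 0 of 48 inactive cells of mouse 1, and in 4 of 28 active and 1 of 30 inactive cells of mouse 2. Egr1 was detected in 4 of 12 active and 1 of 48 inactive cells of mouse 1, and in 4 of 28 active and 0 of 30 inactive cells of mouse 2. Fos and Jun, the classical AP-1 pair, were found together in 3 of 40 active cells. Nr4a1, an orphan nuclear receptor, was detected in 1 active cell, at 141 RPKM. Fosb was detected in 0 MUL cells, for which 3 counts of the total allow a share of up to 1.84% (the exact 95% interval reaches 2.24%), and so moved no cell.

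**Figure D1:**
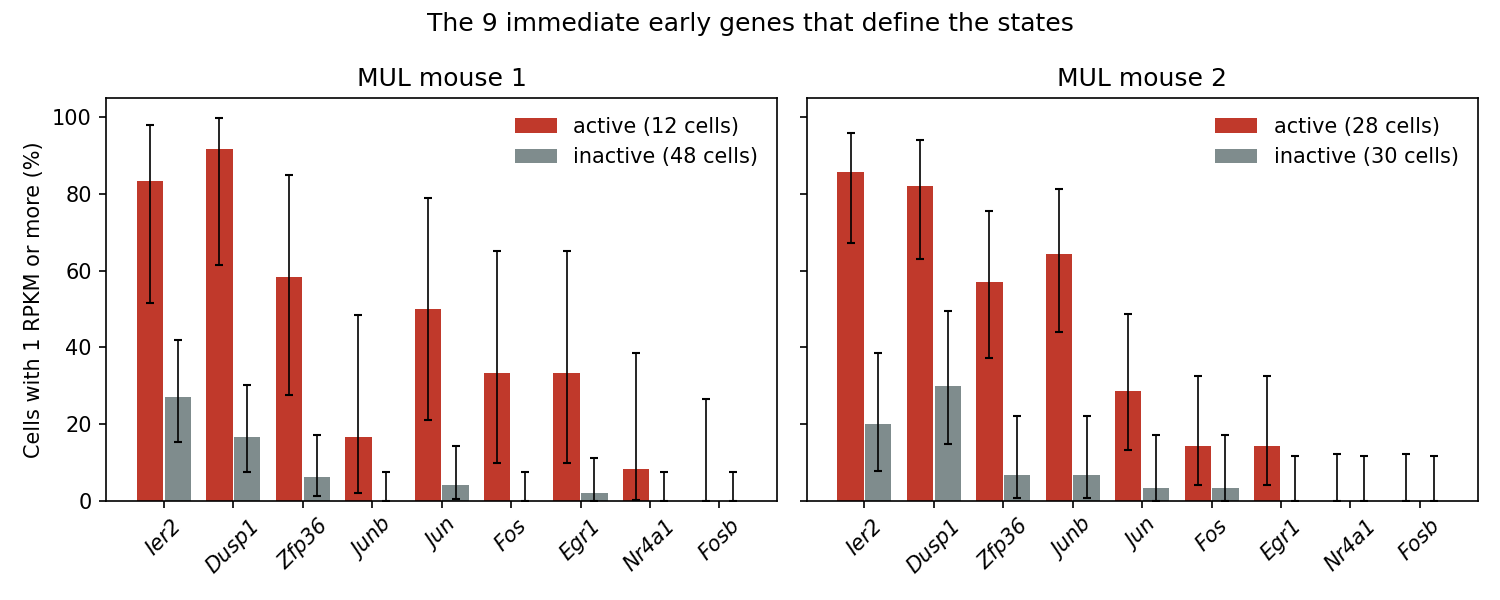
Percent of active (red) and inactive (grey) cells of each MUL mouse with 1 RPKM or more of each of the 9 genes that define the states, with exact 95% intervals for counting error. Ier2 and Dusp1 are the commonest transcripts of active cells, Junb is detected in 18 of 28 active cells of mouse 2 and 2 of 12 of mouse 1, and Fosb is at 0 throughout.

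The combination of genes varied among active cells. The 24 cells with exactly 3 genes showed 11 combinations, of which Ier2 with Dusp1 and Zfp36 was the commonest at 6 cells. Any of Fos, Fosb, Jun, Junb and Egr1 was detected in 34 of 40 active cells. Of the 48 inactive cells with a single gene, 19 had Ier2, 17 Dusp1, 5 Zfp36, 3 Jun, 2 Junb, 1 Egr1 and 1 Fos.

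Pairs of the 9 genes were detected together slightly more often than the product of their separate shares gives. Over the 21 pairs of the 7 genes other than Fosb and Nr4a1, this held for 19 pairs in mouse 1 and 16 in mouse 2. The median ratio of cells with both genes to that product was 1.34 in mouse 1 and 1.11 in mouse 2. The pairs summed to 80 joint detections where the products gave 58.3 in mouse 1, and to 153 where they gave 135 in mouse 2. All pairs share the cells and their depth, so these are descriptions without a test. With the state set by the other 8 genes, Dusp1 was detected in 6 of 7 active and 14 of 54 inactive cells of mouse 1. In mouse 2 it was detected in 10 of 15 active and 32 of 53 inactive cells, so the separation seen in mouse 1 was slight there. Ier2, treated in this way, was detected in 5 of 7 active and 25 of 60 inactive cells of mouse 1. In mouse 2 it was detected in 8 of 12 active and 25 of 49 inactive cells. Junb, treated in this way, was detected in 9 of 19 active and 7 of 35 inactive cells of mouse 2. Fos was detected in 2 of 26 active and 3 of 32 inactive cells of mouse 2, shares that differed little.

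The promoters of 7 of the 9 genes could be read from RefSeq (build GRCm38.p6), over the 250 bases before the transcription start. Those of Dusp1, Zfp36 and Fos are shown because Dusp1 and Zfp36 were, with Ier2, the commonest transcripts of active cells and Fos is the best known of the 9. Capitals mark the core TGACG of the cAMP response element and its full palindrome TGACGTCA, the CArG box bound by serum response factor, and the EGR element GCGGGGGCG, each searched on both strands.
Dusp1 (chr17:26508473-26508722, minus strand): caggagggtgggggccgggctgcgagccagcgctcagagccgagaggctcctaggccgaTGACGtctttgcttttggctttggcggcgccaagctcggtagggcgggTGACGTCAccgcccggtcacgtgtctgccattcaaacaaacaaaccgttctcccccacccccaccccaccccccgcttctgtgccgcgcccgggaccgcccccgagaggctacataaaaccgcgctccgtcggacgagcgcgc
Zfp36 (chr7:28379229-28379478, minus strand): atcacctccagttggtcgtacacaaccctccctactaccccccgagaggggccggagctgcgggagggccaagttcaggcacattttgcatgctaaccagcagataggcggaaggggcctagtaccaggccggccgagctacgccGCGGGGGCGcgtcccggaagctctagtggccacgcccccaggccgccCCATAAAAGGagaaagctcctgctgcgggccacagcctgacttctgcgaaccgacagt
Fos (chr12:85473640-85473889, plus strand): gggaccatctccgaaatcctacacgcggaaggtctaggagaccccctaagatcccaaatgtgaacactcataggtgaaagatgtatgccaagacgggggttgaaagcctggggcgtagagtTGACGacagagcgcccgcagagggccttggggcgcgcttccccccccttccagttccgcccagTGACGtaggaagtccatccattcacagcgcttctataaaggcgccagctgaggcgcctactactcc
In these windows Dusp1 holds the full palindrome at -143 to -136, counted from the start site, and Zfp36 holds a CArG box at -58 to -49 and an EGR element at -105 to -97. Fos holds 2 TGACG cores, at -129 to -125 and -66 to -62. The core, which lies within the palindrome, was present in 5 of the 7 promoters and in 17.9% of 27025 mouse promoters of the same length. The palindrome was present in 1 of 7 and 1.62%, the CArG box in 1 of 7 and 1.40%, and the EGR element in 3 of 7 and 2.56%. In all, 11 motif patterns were searched. The others were AP-1 (TGACTCA or TGAGTCA; 0 of 7 and 4.43%), the EGR element with G or T at base 4 (3 of 7 and 3.05%), which contains the stricter EGR element, and Sp1 (GGGCGG; 6 of 7 and 32.9%). TATAAA or TATATA was found in 1 of 7 and 16.4%, the core of the interferon-stimulated response element in 0 of 7 and 3.04%, and a degenerate NF-kB element in 2 of 7 and 7.86%. The last was replaced for display by the literal GGGATTCC (0 of 7 and 0.873%), which overlaps it, after the sequences had been seen. A match describes the letters in the window and is no evidence of binding.

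Active cells had more detected genes, although they were not sequenced more deeply. The median number of detected genes was 2568 in active and 2129.5 in inactive cells of mouse 1, and 2671.5 in active and 2509.5 in inactive cells of mouse 2. The order was the same in all 4 plate sets: 2741.5 in active and 2120.5 in inactive cells on P1 and 2202.5 and 2139 on P2 of mouse 1, and 2976 in active and 2519 in inactive cells on P1 and 2529 and 2369 on P2 of mouse 2. In mouse 1, the lowest of 3 equal bins of detected genes held 0 active and 20 inactive cells. Median mapped reads were 3.95 M in active and 4.91 M in inactive cells of mouse 1, and 4.87 M in active and 5.21 M in inactive cells of mouse 2. The median mitochondrial percent was 5.85 in active and 5.97 in inactive cells of mouse 1, and 4.67 in active and 5.97 in inactive cells of mouse 2.

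Across the cells of a mouse, Spearman's correlation between the number of the 9 genes and detected genes was 0.22 in mouse 1 (78 cells) and 0.12 in mouse 2 (85 cells). With mapped reads it was -0.22 and -0.13, and with the mitochondrial percent 0.03 and -0.31, in the same order of mice. The points of each correlation share a mouse and its libraries. With 2 mice no exact test of these medians can reach p = 0.05, and the part of detected genes, reads or plate in the differences described next was not tested beyond the alternatives given with them.

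**Figure D2:**
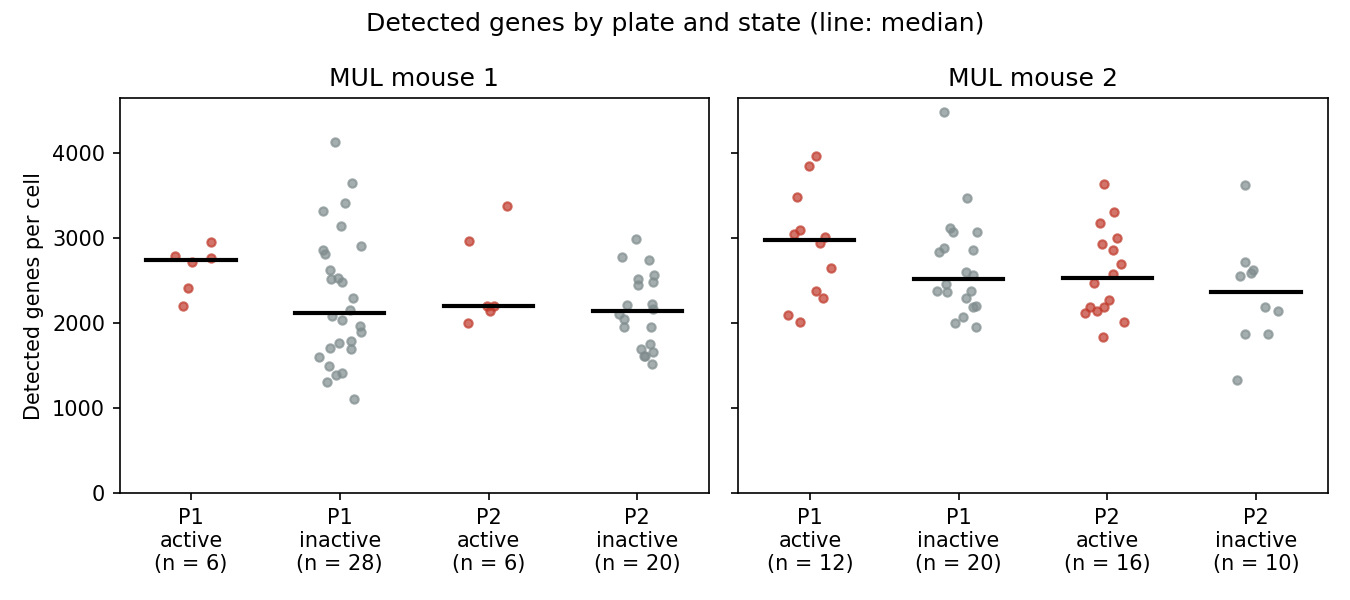
Detected genes per cell (authors' count) for active (red) and inactive (grey) cells on each plate of each MUL mouse, with 1 point per cell and a line at the median. The median of active cells lies above that of inactive cells in all 4 plate sets, and the points overlap in every one.

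The transcriptome outside the 9 genes was compared as log2(mean RPKM + 1) of the active and of the inactive cells of each mouse, paired by mouse in limma. Of 9813 genes tested, 0 were higher and 0 lower in active cells at an adjusted p under 0.05 (0% each), and the lowest adjusted p was 0.774. At an unadjusted p under 0.05, 217 were higher and 396 lower, where 5% of the genes tested is 491. By fold change, 4306 of the 9813 genes were higher and 5507 lower, the background for member counts of the lists below. The median log2 fold change of all genes was -0.13. It was 0.07 when log2 values were averaged over cells in place of RPKM, and the unadjusted counts then became 352 higher and 139 lower. The split also turned with the rule. With 2 or more genes as active the counts were 401 higher and 285 lower (median 0.010), and with detection above 0, which left 49 active and 9 inactive cells in mouse 1 and 65 active and 4 inactive cells in mouse 2, they were 2196 higher and 47 lower (median 0.97). Without plate P1 of mouse 2 the median was 0.02. The overall direction therefore depends on these choices, and fold changes below are to be read against the median of -0.13. The fit had 1 residual degree of freedom per gene and a total of 5.75 after moderation.

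A second description asked for the same direction in all 4 mouse and plate sets, by mean RPKM. It was met by 334 genes higher in active cells (3.4% of those tested) and 809 lower (8.24%). Without the 2 active cells with myeloid transcripts described below, these were 323 (3.32%) and 833 (8.57%) of 9717. The 10 genes of each direction with the smallest unadjusted p among them are named next, each with an adjusted p of 0.785 in limma.

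Of genes higher in active cells in all 4 plate sets, Cd69 had the smallest unadjusted p. It encodes a lectin displayed early on activated lymphocytes and other leukocytes, and was detected in 2 of 12 active and 3 of 48 inactive cells of mouse 1, and in 7 of 28 active and 3 of 30 inactive cells of mouse 2. The lowest and median values were 0 RPKM in every group, and the highest was 3129 RPKM in active and 101 RPKM in inactive cells of mouse 1, and 729 RPKM in active and 254 RPKM in inactive cells of mouse 2. A few high cells thus set its log2 fold change of 4.45 (SE 0.97, unadjusted p = 0.0041 in limma). Cd69 is itself an early response gene, and it was not among the 9.

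Chchd10, which encodes a mitochondrial intermembrane protein, was detected in 6 of 12 active and 8 of 48 inactive cells of mouse 1, and in 15 of 28 active and 4 of 30 inactive cells of mouse 2 (log2 fold change 2.82, SE 0.66). Gimap5, a GTPase needed for lymphocyte and HSC survival in mice, was detected in 7 of 12 active and 6 of 48 inactive cells of mouse 1, and in 17 of 28 active and 10 of 30 inactive cells of mouse 2 (1.81, SE 0.52). The sialomucin Cd164 had a mean of 167 RPKM in active and 75.3 RPKM in inactive cells of mouse 1, and 212 RPKM in active and 33.6 RPKM in inactive cells of mouse 2 (1.88, SE 0.52). Esam, a junctional adhesion molecule that marks HSCs, had a mean of 102 RPKM in active and 25.9 RPKM in inactive cells of mouse 1, and 170 RPKM in active and 62.0 RPKM in inactive cells of mouse 2 (1.69, SE 0.47). H2-K1 is described below. The remaining 4 were Rilpl2, Enkur, Slc25a39 (a mitochondrial carrier) and Vps51, with log2 fold changes from 2.28 to 4.92. Enkur was detected in 2 active cells of each mouse and in 1 and 0 inactive cells of mouse 1 and mouse 2, so its value rests on 5 cells.

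Among genes lower in active cells in all 4 plate sets, Chmp2a, a subunit of the ESCRT-III membrane scission complex, had the smallest unadjusted p. It was detected in 4 of 12 active and 29 of 48 inactive cells of mouse 1, and in 13 of 28 active and 21 of 30 inactive cells of mouse 2. Values ran from 0 to 554 RPKM (median 0.417) in active and from 0 to 1155 RPKM (median 176) in inactive cells of mouse 1, and from 0 to 584 RPKM (median 0.840) in active and from 0 to 1262 RPKM (median 267) in inactive cells of mouse 2. The ranges overlapped while the medians were far apart in both mice (log2 fold change -2.07, SE 0.35, unadjusted p = 0.0012 in limma).

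Cks1b, a cyclin-dependent kinase subunit, was detected in 4 of 12 active and 21 of 48 inactive cells of mouse 1, and in 5 of 28 active and 10 of 30 inactive cells of mouse 2 (log2 fold change -1.66, SE 0.36). Fkbp3, a nuclear prolyl isomerase, had a mean of 231 RPKM in active and 551 RPKM in inactive cells of mouse 1, and 283 RPKM in active and 570 RPKM in inactive cells of mouse 2 (-1.13, SE 0.27). Psma4, a proteasome core subunit, had a mean of 111 RPKM in active and 266 RPKM in inactive cells of mouse 1, and 72.0 RPKM in active and 208 RPKM in inactive cells of mouse 2 (-1.39, SE 0.36). The nucleotide pyrophosphatase Dctpp1, the chromatin reader Brd7, the mitochondrial arginyl-tRNA synthetase Rars2, the small GTPase Rab8a, the tubulin Tuba8 and the cilium gene Bbs7 made up the 10, with log2 fold changes from -2.00 to -4.73. Tuba8 and Bbs7 were detected in 1 and 0 active cells over both mice, and in 12 and 5 inactive cells.

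**Figure D3:**
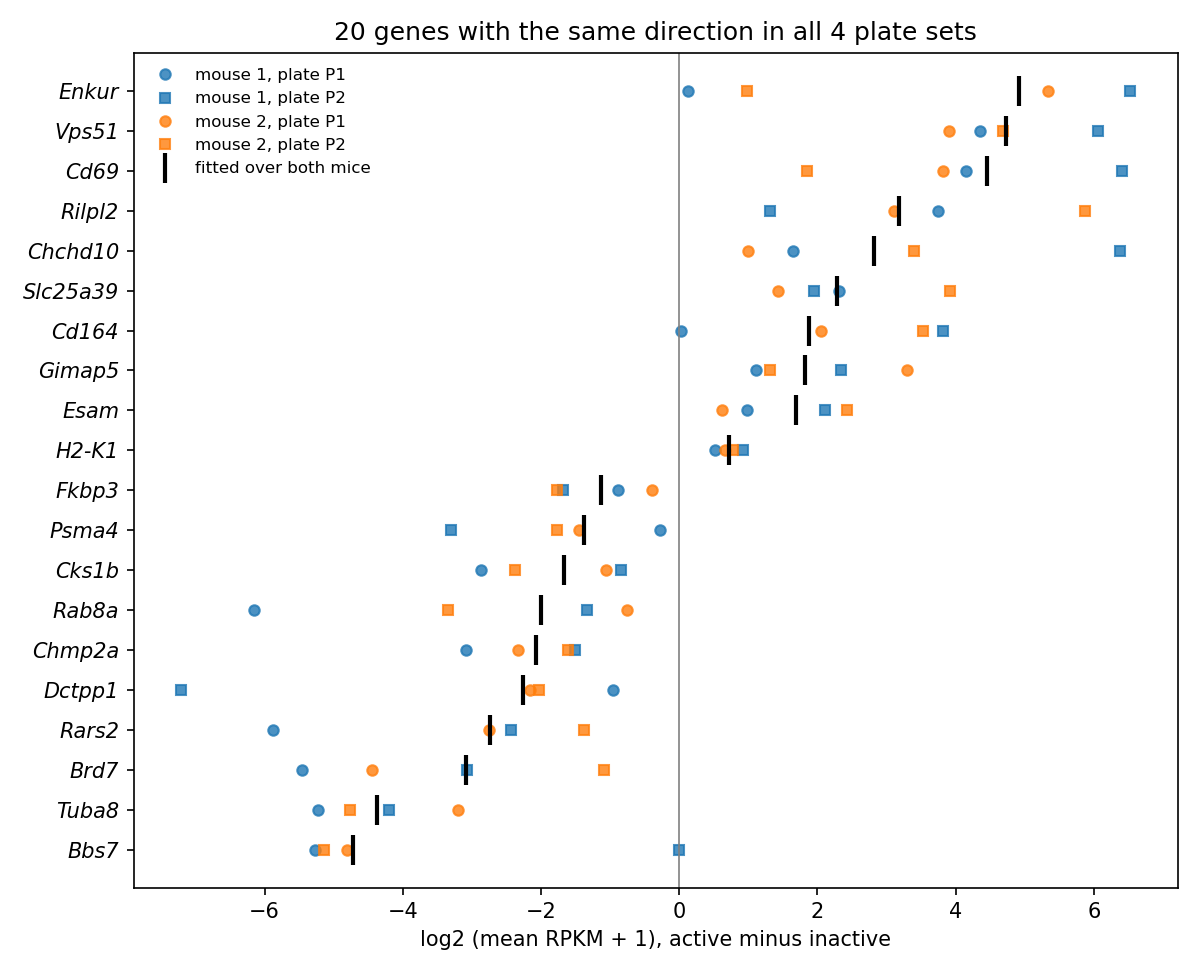
Difference between active and inactive cells in log2(mean RPKM + 1) for the 10 genes of each direction named by rule, with a marker for each mouse and plate and a bar at the value fitted over both mice. All genes were chosen for having 1 direction in the 4 plate sets, H2-K1 shows the tightest cluster of the 20, and Bbs7 lies at about 0 on plate P2 of mouse 1, where both means were close to 0 RPKM.

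MHC class I genes, which present peptides to CD8 T cells, were correlated over cells with the number of immediate early genes in both mice. Of the 8 genes with the highest mean within-mouse Spearman correlation with that number, 7 were H2 genes: H2-Q10 (0.44), H2-Q1 (0.42), H2-Bl (0.41), H2-K2 (0.41), H2-Q2 (0.39), H2-K1 (0.38) and H2-D1 (0.37). The eighth was Supt7l (0.32), a transcriptional coactivator subunit. Class I H2 genes are related in sequence, and reads of one may have been counted for another. Their levels correlated over cells with coefficients from 0.47 to 0.96, so the 7 are not independent. The points of these correlations are 78 cells of mouse 1 and 85 of mouse 2, which share a mouse, libraries and depth. The further values on H2 genes in the next paragraphs were computed after this list had been seen.

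H2-K1 lies on chromosome 17 at 33996017 to 34000347 (minus strand, mm10, GENCODE M21). It ran from 478 to 3912 RPKM (median 2130) in active and from 0.889 to 4763 RPKM (median 1148) in inactive cells of mouse 1. In mouse 2 it ran from 611 to 7036 RPKM (median 2276) in active and from 24 to 4632 RPKM (median 1509) in inactive cells. The groups overlapped widely, and H2-K1 reached 1 RPKM in 40 of 40 active and 77 of 78 inactive cells. Its log2 fold change was 0.71 (SE 0.19, unadjusted p = 0.010, adjusted p = 0.785 in limma), and 0.72 with active and inactive cells matched for the bins of detected genes. Plate medians were 2073 in active and 1170 RPKM in inactive cells on P1 and 2235 and 1073 RPKM on P2 of mouse 1, and 2415 in active and 1534 RPKM in inactive cells on P1 and 2177 and 1352 RPKM on P2 of mouse 2.

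H2-K1 was listed for its correlation with the number of the 9 genes over these same cells. The values in this paragraph therefore describe that relation and are no separate support for it. The medians of H2-K1 were graded. In mouse 1 they were 921, 1346, 1883 and 2130 RPKM in cells with 0, 1, 2 and at least 3 of the 9 genes, and in mouse 2 they were 1240, 1549, 1907 and 2276 RPKM. Spearman's correlation between H2-K1 and the number of genes was 0.43 and 0.37 on P1 and P2 of mouse 1 (43 and 35 cells), and 0.33 and 0.38 on P1 and P2 of mouse 2 (45 and 40 cells). As a partial rank correlation given detected genes, it was 0.39 in mouse 1 and 0.38 in mouse 2, given mapped reads 0.36 and 0.35, and given the mitochondrial percent 0.40 and 0.30, in the same order of mice. Split by single genes, the median of H2-K1 was higher in cells with Ier2 than without (1950 and 1133 RPKM in mouse 1, 2074 and 1605 RPKM in mouse 2) and with Dusp1 than without (1875 and 1133 RPKM in mouse 1, 1966 and 1509 RPKM in mouse 2). For Fos the order differed by mouse, with 1577 RPKM with and 1346 RPKM without it in mouse 1, and 1736 RPKM with and 1901 RPKM without it in mouse 2.

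H2-D1 (chromosome 17, 35262730 to 35267499, plus strand) had medians of 505 RPKM in active and 348 RPKM in inactive cells of mouse 1, and 796 RPKM in active and 384 RPKM in inactive cells of mouse 2. Its log2 fold change was 0.64 (SE 0.26, unadjusted p = 0.050, adjusted p = 0.785 in limma). B2m, the light chain shared by class I molecules, differed less, with medians of 7664 RPKM in active and 7176 RPKM in inactive cells of mouse 1 and 7031 RPKM in active and 5512 RPKM in inactive cells of mouse 2. Its correlation with the number of genes was 0.14 in mouse 1 and 0.15 in mouse 2. The list of 19 MHC and antigen presentation genes had 16 tested, of which 11 had a higher and 5 a lower mean in active cells and none passed the test. Its median log2 fold change was 0.26, with -0.24 in mouse 1 and 0.71 in mouse 2. H2-K1, H2-D1 and H2-T23, or 18.8% of those tested, were higher in all 4 plate sets, beside 3.4% of all genes, and their reads may overlap. Psmb8, an immunoproteasome subunit, was lower in all 4 (log2 fold change -0.46), and higher (0.70) when log2 values were averaged over cells. Of 26 interferon response genes, 22 were tested with a median of 0.12.

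**Figure D4:**
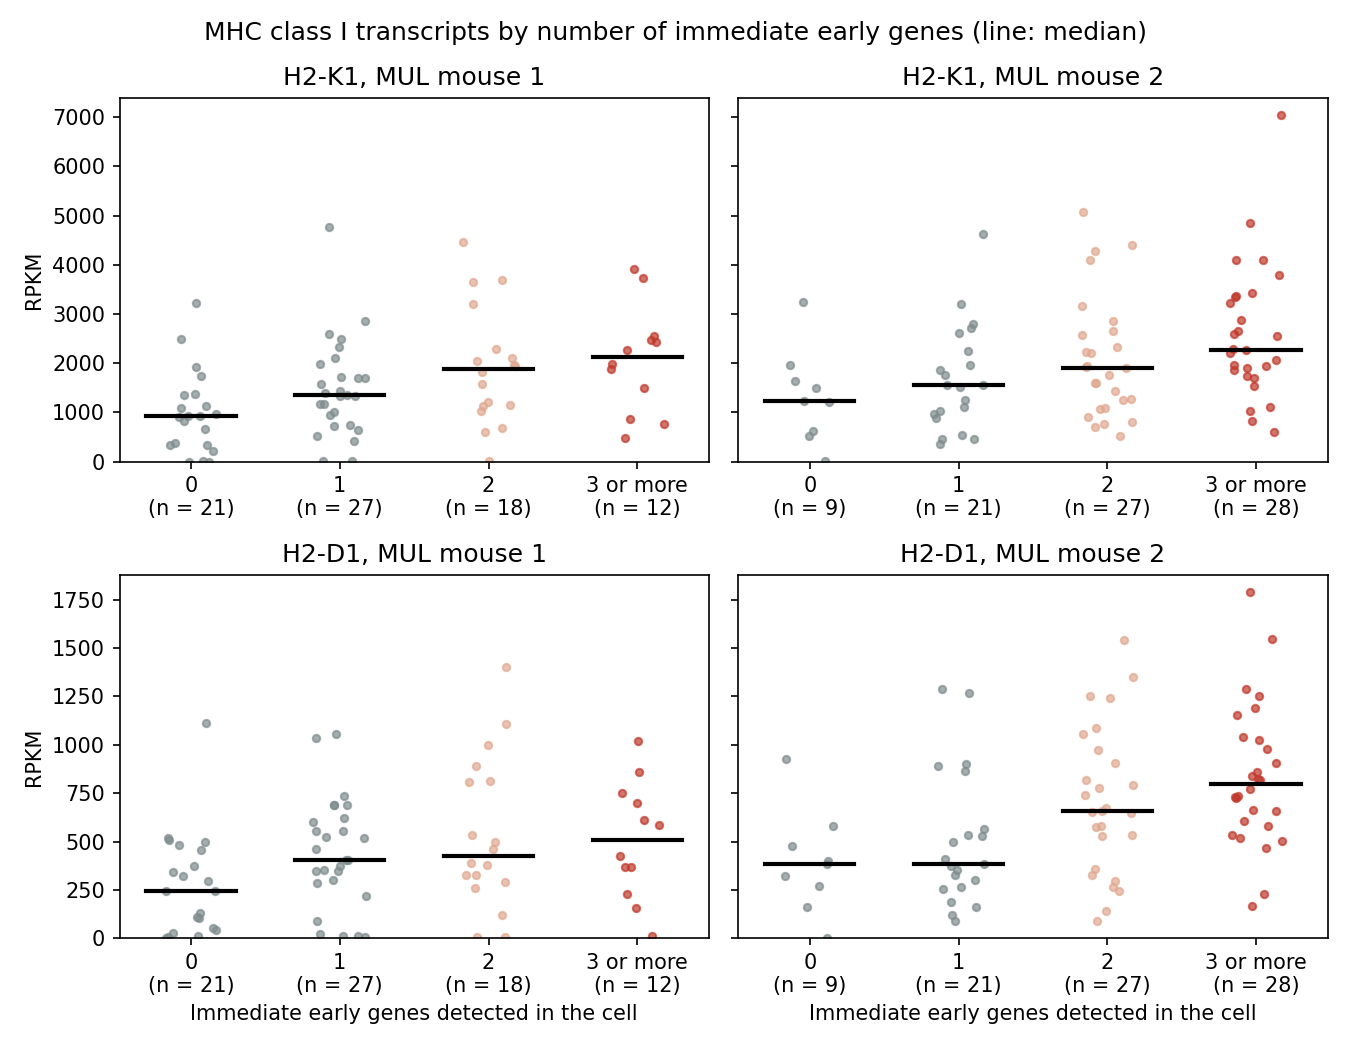
RPKM of H2-K1 (top) and H2-D1 (bottom) in each cell of MUL mouse 1 (left) and mouse 2 (right) by the number of immediate early genes detected, with cells of 3 or more in red and a line at the median. H2-K1 medians climb at every step in both mice, from 921 to 2130 RPKM and from 1240 to 2276 RPKM, while single cells spread widely at each number. H2-D1 medians climb from 245 to 505 RPKM in mouse 1. In mouse 2 they are 386 and 382 RPKM with 0 and 1 genes, and reach 796 RPKM with 3 or more.

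The promoters of H2-K1 and H2-D1 are shown because both genes shared the pattern and share sequence. By GENCODE M21 the H2-D1 gene starts further upstream, so that the RefSeq window of H2-D1 lies within it. Capitals mark TGACG and the NF-kB element GGGATTCC.
H2-K1 (chr17:34000348-34000597, minus strand): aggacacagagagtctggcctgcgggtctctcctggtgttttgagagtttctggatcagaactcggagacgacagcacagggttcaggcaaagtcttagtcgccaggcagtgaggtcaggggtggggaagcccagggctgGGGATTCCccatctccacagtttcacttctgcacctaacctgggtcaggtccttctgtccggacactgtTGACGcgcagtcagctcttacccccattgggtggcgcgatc
H2-D1 (chr17:35262844-35263093, plus strand): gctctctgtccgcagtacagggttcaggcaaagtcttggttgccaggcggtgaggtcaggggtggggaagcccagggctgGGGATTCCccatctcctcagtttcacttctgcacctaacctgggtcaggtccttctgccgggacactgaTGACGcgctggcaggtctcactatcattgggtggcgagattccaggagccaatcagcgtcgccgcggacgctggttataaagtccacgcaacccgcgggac
Both windows, from RefSeq GRCm38.p6, hold 1 TGACG and 1 GGGATTCC. Over 27025 promoters of this length, TGACG was present in 17.9% and GGGATTCC in 0.873%. The string GGGATTCC was set after these sequences had been seen, so its presence in both windows is no support for a shared element. The longest stretch identical between them was 47 bases. Neither holds the palindrome, the CArG box, the EGR element or the AP-1 element.

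The relation with H2-K1 varied among the other mice. Spearman's correlation between H2-K1 and the number of the 9 genes was 0.40 in MUL mouse 1 and 0.36 in MUL mouse 2, against 0.01 in PEM mouse 1 (93 cells), 0.34 in PEM mouse 2 (25 cells), -0.02 in PLT mouse 1 (93 cells) and 0.15 in PLT mouse 2 (84 cells). In PEM mouse 1, the only other mouse with at least 5 cells in both states, the log2 fold change of H2-K1 was -0.10 between 9 active and 51 inactive cells. The difference between the MUL effect and this one was 0.81 (SE 0.24, unadjusted p = 0.025, adjusted p = 0.992 in limma). Over 10738 genes, this difference passed adjustment for 0 genes in either direction (0% each), and at an unadjusted p under 0.05 it was larger in MUL for 239 and smaller for 83. Nothing is therefore shown to be particular to MUL cells. Cd69 had a log2 fold change of 4.56 in PEM mouse 1, but on 1 of 9 active and 1 of 51 inactive cells.

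Other transcription factors of the early response did not follow as a group. Of 24 further primary response transcription factors, 13 were tested, 9 higher and 4 lower in mean, and none passed. Their median log2 fold change was 0.69, but 1.64 in mouse 1 and -0.33 in mouse 2. Id2, an inhibitor of basic helix-loop-helix factors, was detected in 1 of 12 active and 2 of 48 inactive cells of mouse 1 and in 6 of 28 active and 1 of 30 inactive cells of mouse 2. Hes1, a target of Notch, was detected in 3 active and 0 inactive cells. Of 9 other AP-1 and ATF subunits, 4 were tested, 1 higher and 3 lower, with a median of -0.93. Their median was -2.06 in mouse 1 and 0.037 in mouse 2, and -0.045 with log2 averaged over cells.

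Feedback inhibitors of signalling had 27 of 38 members tested, 18 higher and 9 lower, none past the test, with a median of 0.39. The median was 0.34 in mouse 1 and 0.72 in mouse 2, and 0.40 with log2 averaged over cells, beside 0.07 for all genes. Gadd45a and Pim1 were higher in all 4 plate sets (7.41% of those tested, beside 3.4% of all genes), and Spry1 and Socs2 lower (7.41%, beside 8.24%). Ppp1r15a, which directs dephosphorylation of eIF2alpha, was detected in 5 of 12 active and 5 of 48 inactive cells of mouse 1, and in 11 of 28 active and 4 of 30 inactive cells of mouse 2 (log2 fold change 1.45, SE 0.52). Nfkbid, a nuclear IkB protein, was detected in 4 active and 0 inactive cells, and Dusp2 in 9 active and 3 inactive cells. Spred1, an inhibitor of the Ras pathway, was detected in 0 active and 8 inactive cells. Heat shock and dissociation chaperones, 16 of 16 tested, had a median of 0.14, with 10 higher and 6 lower.

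HSC identity and self-renewal genes were mostly higher in mean, with 22 of 30 tested members higher and 8 lower. Of all 9813 genes, 4306 were higher and 5507 lower. The list had a median of 0.25 and the same sign in both mice (0.21 in each), and none of its members passed the test. Lyl1, Esam and Hoxa5 (10% of those tested, beside 3.4% of all genes) were higher in all 4 plate sets. Among the HSC markers checked above, Hlf and Procr had lower means in active cells of both mice. Kit, Slamf1, Mecom and Meis1 had higher means in both, and Ly6a was lower in mouse 1 and higher in mouse 2. Hlf was detected in 1 of 12 active and 9 of 48 inactive cells of mouse 1. In mouse 2 it was detected in 14 of 28 active and 16 of 30 inactive cells. Kit was detected in 9 of 12 active and 21 of 48 inactive cells of mouse 1, and in 23 of 28 active and 17 of 30 inactive cells of mouse 2 (0.58, SE 0.48). Vwf, whose expression marked the transplanted cell, was detected in 1 of 12 active and 6 of 48 inactive cells of mouse 1, and in 8 of 28 active and 3 of 30 inactive cells of mouse 2 (0.50, SE 1.39). Ctla2a, a cysteine protease inhibitor, was 0.79 higher (SE 0.31) and Ctla2b 0.34 (SE 0.28), while Tsc22d3 (0.24, SE 0.30), Cd34 (0.22, SE 0.40), Procr (-0.25, SE 0.55) and Slamf1 (2.20, SE 1.24) lay within about 2 standard errors of 0.

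Cell cycle transcripts were lower in active cells in most members, and none passed the test. Of 22 G2-M genes tested, 20 were lower, beside 5507 of all 9813 genes. Their median log2 fold change was -0.87, with -0.59 in mouse 1 and -1.04 in mouse 2. Tpx2, Cenpe, Cenpf and Hmmr, or 18.2% of those tested, were lower in all 4 plate sets, beside 8.24% of all genes. Of 23 S phase genes tested, 17 were lower, with a median of -0.54, and Mcm6, a subunit of the replicative helicase, and Ung (8.7% of those tested, about the share of all genes) were lower in all 4. Averaged as log2 over cells, the medians were smaller in size, at -0.27 for G2-M and -0.22 for S phase genes, beside 0.07 for all genes. With detection above 0 the G2-M median turned to 1.36, with 19 of 22 genes higher, while that of all genes was 0.97. Yet counts of cells did not separate the states: at least 5 G2-M genes were detected in 3 of 12 active and 13 of 48 inactive cells of mouse 1, and in 6 of 28 active and 11 of 30 inactive cells of mouse 2. At least 5 S phase genes were detected in 4 of 12 active and 21 of 48 inactive cells of mouse 1, and in 12 of 28 active and 10 of 30 inactive cells of mouse 2. Mki67 was detected in 2 active and 12 inactive cells (-2.52, SE 1.36, and 3.08 with detection above 0). Of the Cdk inhibitors, Cdkn1a was detected in 2 active and 0 inactive cells and Cdkn1c in 2 active and 4 inactive cells. Quiescence genes had a median of 0.32 over 16 tested, which became -0.23 without the 2 cells with myeloid transcripts.

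**Figure D5:**
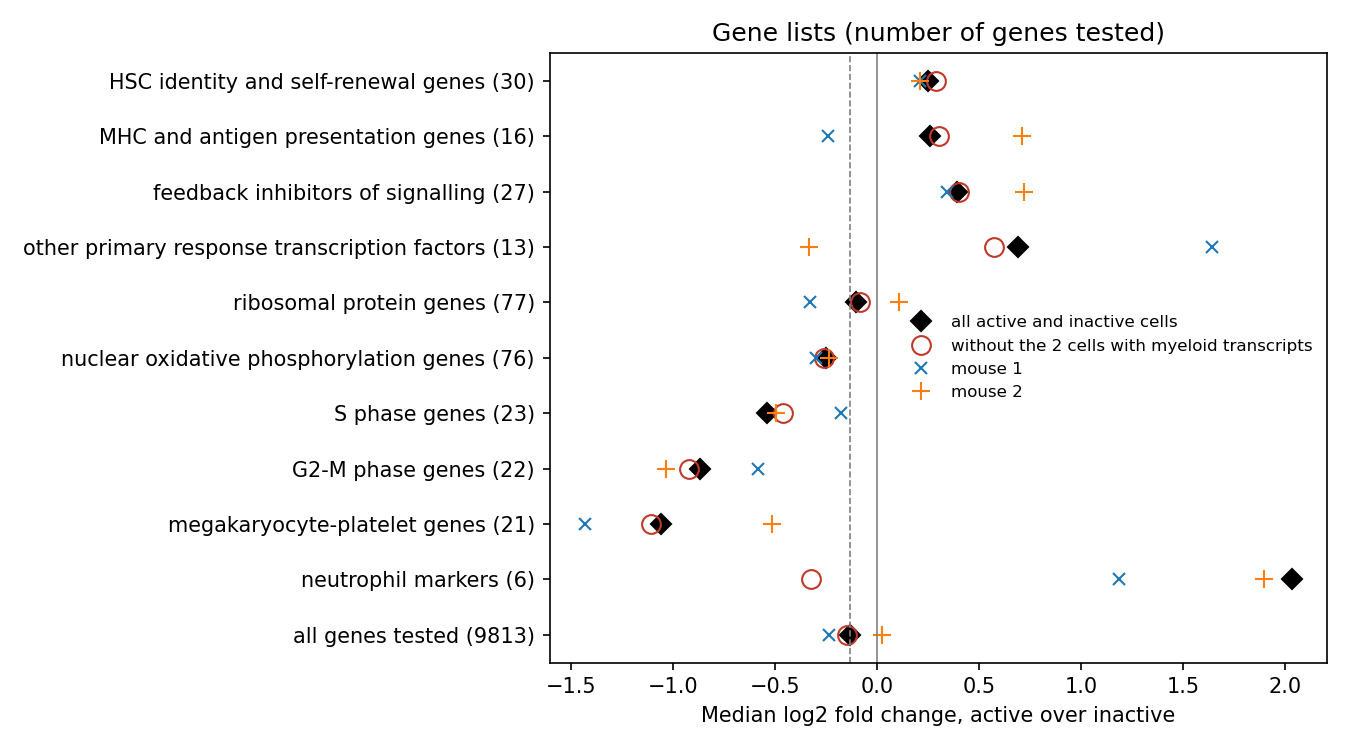
Median log2 fold change, active over inactive, of 9 gene lists and the neutrophil markers, with the number of genes tested in brackets, for both mice together (black diamond), without 2 cells with myeloid transcripts (open circle) and in each mouse alone (cross and plus). The dashed line is the median of all 9813 genes at -0.13, and the neutrophil markers move from 2.03 to -0.32 when the 2 cells are left out.

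The median of nuclear genes of oxidative phosphorylation was -0.25, with -0.30 in mouse 1 and -0.23 in mouse 2. Of 76 tested, 59 were lower, beside 5507 of all 9813 genes. Of these, 10 (13.2% of those tested) were lower in all 4 plate sets, beside 8.24% of all genes. Ndufa12, of respiratory complex I, ran from 0 to 754 RPKM (median 244) in active and from 0 to 1545 RPKM (median 418) in inactive cells of mouse 1. In mouse 2 it ran from 0 to 811 RPKM (median 180) in active and from 0 to 1122 RPKM (median 390) in inactive cells. The groups overlapped, with lower medians in active cells of both mice (log2 fold change -0.97, SE 0.28). Cox7c, of complex IV, was -1.05 (SE 0.35), and its median was 170 RPKM in active and 393 RPKM in inactive cells of mouse 1 and 170 RPKM in active and 197 RPKM in inactive cells of mouse 2. Ndufa9 was -1.51 (SE 0.42) and Atp5o, of ATP synthase, -1.18 (SE 0.42). Ribosomal protein genes had a median of -0.11 over 77 tested, close to that of all genes. Averaged as log2 over cells, the medians were 0.07 for oxidative phosphorylation and 0.15 for ribosomal protein genes, so their sign turned with the way of averaging.

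Megakaryocyte-platelet genes were lower in 16 of 21 tested, beside 5507 of all 9813 genes, with a median of -1.06. Of those tested, 2 (Gp5 and Rab27b, 9.52%, beside 8.24% of all genes) were lower in all 4 plate sets. The list median was -0.16 with log2 averaged over cells and 1.08 with detection above 0. Gp5, a subunit of the platelet von Willebrand factor receptor, was detected in 1 of 40 active and 10 of 78 inactive cells (log2 fold change -3.69, SE 1.26). Nfe2, a transcription factor of platelet formation, went the other way in mean, and was detected in 11 of 12 active and 43 of 48 inactive cells of mouse 1 and in every active and inactive cell of mouse 2 (0.64, SE 0.28). Ccl3, an inflammatory chemokine, was detected in 2 of 40 active and 6 of 78 inactive cells (-2.66, SE 1.54, and 4.75 with detection above 0). Lymphoid priming genes had a median of -0.97 over 8 tested (1.01 with detection above 0) and myeloid genes 1.01 over 8 tested. Without the 2 active cells with myeloid transcripts described next, the median of myeloid genes was 0.076 over 6 tested.

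The smallest unadjusted p of the whole comparison belonged to S100a8, a transcript of mature myeloid cells, and its difference came from 2 active cells, 1 in each mouse. They were singled out after their values were seen, as the only MUL cells with at least 100 RPKM of at least 2 of Tyrobp, Fcgr3 and Il1b. The cell of mouse 1 (plate P2) had 4610 RPKM of S100a8, 2305 RPKM of Tyrobp, 1000 RPKM of Il1b and 203 RPKM of Fcgr3. The cell of mouse 2 (plate P1) had 55346 RPKM of S100a8, 1437 RPKM of Tyrobp, 396 RPKM of Il1b and 684 RPKM of Fcgr3. S100a8 is a calprotectin subunit of neutrophils and monocytes, Tyrobp and Fcgr3 signalling and Fc receptor chains of myeloid cells, and Il1b an inflammatory cytokine. Both cells carried 5 of the 9 immediate early genes, and both also held Kit (189 and 69.6 RPKM). Of the neutrophil markers, Mpo, Elane and Ltf were at 0 in every MUL cell, and Ngp was at 0 in the cell of mouse 1 and at 42.3 RPKM in the cell of mouse 2. Others were present among MUL cells. Mmp8 reached 2074 RPKM, Lcn2 914 RPKM and Camp 156 RPKM, each detected in 1 cell. Mmp9 was detected in 2 cells (highest 298 RPKM), both active, and Retnlg in 9 cells (highest 16314 RPKM). Their values in the 2 cells described here are not listed singly.

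With these cells the log2 fold change of S100a8 was 8.80 (SE 0.89, limma adjusted p = 0.774), and without them 1.68, and S100a9, Tyrobp and Fcgr3 became -2.15, -1.12 and -0.010. The 13 neutrophil markers had 6 tested with a median of 2.03, and -0.32 over 3 tested without the 2 cells. Their summed level ran from 4.40 to 6510 RPKM in active and from 4.76 to 2074 RPKM in inactive cells of mouse 1, and from 6.74 to 83862 RPKM in active and from 8.68 to 1888 RPKM in inactive cells of mouse 2. At least 3 of the 13 were detected in 2 of 12 active and 4 of 48 inactive cells of mouse 1, and in 4 of 28 active and 5 of 30 inactive cells of mouse 2. For macrophage and monocyte markers, of which 14 were listed, the counts were 1 of 12 active and 8 of 48 inactive cells of mouse 1, and 8 of 28 active and 6 of 30 inactive cells of mouse 2. H2-K1 kept a log2 fold change of 0.74, Cd69 of 4.46 and Chmp2a of -1.99 without the 2 cells. Whether they are HSCs with myeloid transcripts or carried another cell or its RNA was not tested.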

How the data were processed

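Each sample was 1 index-sorted donor-derived HSC, whose library was made with a SMARTer Ultra Low kit according to the labels' protocols. The authors' table holds RPKM for 22645 genes, made with TopHat, featureCounts and mm10 per the submitters' processing notes. Tool versions, gene lengths and the read total behind RPKM are not given in the sources used here. A second deposited table gives each cell's count of mapped reads, count of detected genes and percent of mitochondrial reads, per the file headers. Mouse and plate came from the cell titles. No filter on cells and no doublet caller was applied to these single-well libraries.

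The replicate was the mouse, and RPKM was averaged over its active and over its inactive cells. The 4 profiles were tested as log2(mean RPKM + 1) in limma 3.58.1 (R 4.3.3) with mouse as block, for genes reaching 1 RPKM in 2 or more profiles, without the 9 defining genes. Values were averaged with pandas 2.3.3, and correlations and exact (Clopper-Pearson) 95% intervals came from SciPy 1.17.1. P-values were Benjamini-Hochberg adjusted over all genes tested, with a threshold of 0.05. The fit was also run on simulated profiles with large planted changes and less noise than these data. That run checks the code and does not measure the power of the test here. The states lie within a mouse, which is where the pairing comes from. A pseudocount of 1 understates the change of low genes, and fold changes are on that scale. With 2 mice, p-values measure the spread of the state difference between these 2 clones. A planned test in PEM and PLT mice was not run, because a single mouse had 5 cells in both states.

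The defining genes, gene lists and named genes were chosen with earlier results of these data known. Named were the 10 genes per direction with the smallest unadjusted p among those with 1 direction in both mice and all plate sets, a set list of HSC and cell cycle genes whatever their value (1 of them is not reported here), the 9 defining genes, the 8 genes most correlated with their number, and up to 4 genes per list. Which lists are described with examples, the further H2 values, the choice of capitals in promoters and the 2 cells with myeloid transcripts were decided after values were seen. Positions came from GENCODE M21 and promoters from RefSeq GRCm38.p6.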

Additional observations from a re-analysis of the deposited data

How the results depend on the processing

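The fit without the replicate block (no pairing by mouse) also called 0 genes higher and 0 lower in limma. The count of genes higher in active cells was 0 under every alternative run except 1 with a mean of at least 5 RPKM (S100a8), 1 with detection at 10 RPKM (S100a8) and 6 with quantile normalization (S100a8, S100a9, Tyrobp, Cd69, H2-K1 and Beta-s). Quantile normalization also called 3 lower (Vta1, Med21 and Chmp2a), on a total of 212 degrees of freedom against 5.75 in the reported fit, and the cause was not tested. The active share of mouse 1 was 62.8% with detection above 0. That of mouse 2 was 22.4% at 10 RPKM, 76.5% above 0 and 18.5% in the middle bin of detected genes. Of 1300 values of 52 genes under 25 alternatives, 30 had the other sign. The 52 include genes chosen for having 1 direction in both mice and all plate sets. Their sign was therefore largely fixed under the alternatives by mouse and plate, and the count is no measure of robustness. Detection above 0 gave 0.084 for Brd7, 0.11 for Rars2, 0.86 for Procr, 4.75 for Ccl3, 3.08 for Mki67, 0.61 for Cdkn1c, 0.42 for Spred1 and 0.030 for Psmb8. Vwf was -0.29 at 10 RPKM. Cd34 was -0.22 and -0.046 with cells matched for detected genes and for reads, -1.15 by plate and -0.10 without cells with mature markers. Procr was 0.11 and Psmb8 0.70 with log2 averaged over cells, and Procr 3.47 with 4 or more genes against 0. With 2 or more genes as active, Procr was 0.15 and Cdkn1c 0.23. Tyrobp was -0.049 without cells with mature markers. Leaving out 1 mouse or 1 plate at a time gave from -1.08 (without mouse 2) to 2.07 for Vwf, from -3.07 (without P2 of mouse 1) to 0.81 for Cd34, from -0.83 to 0.57 (without P1 of mouse 2) for Procr and from -0.095 (without P1 of mouse 1) to 5.52 for Id2. Without P2 of mouse 2 the lowest values were -0.073 for Ctla2b and -0.15 for Kit, against highest values of 0.85 and 1.19. Tsc22d3 ran from -0.22 (without mouse 2) to 0.70. Without the 2 cells with myeloid transcripts (an alternative added after the data were seen), S100a9 was -2.15, Tyrobp -1.12 and Fcgr3 -0.010. Leaving out a mouse leaves values and no test, and alternatives of the untested PEM and PLT contrast were not run.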
